A study of Homo sapiens with 4 samples.

Results

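The 4 libraries of MDA-MB-231, a mesenchymal cell line from a triple-negative breast cancer, were compared here by replicate number: the 2 libraries numbered 2 against the 2 numbered 1. Each number holds 1 library of control cells (titled shC, and called mock-transfected in the series text) and 1 of cells with a knockdown of AURKA (titled shA), the gene of the mitotic kinase Aurora A, so genotype is balanced between the numbers. All 4 samples of the series enter, and the members were chosen by the number in their titles alone. The medium of every group was L-15 plus serum and antibiotics, and no group differed from another in a labelled drug, time or passage. The series text calls the numbers biological replicates, while the labels do not say whether they mark separate days, passages or platings. Nor do the labels say how the knockdown was made, whether it is a pool or 1 clone, or whether control cells carried a hairpin.

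The replicate number is also the quantification run. Tables of the same number listed transcripts in the same order, and tables of different numbers did not. Each number had 81 transcripts that the other lacked, and the locus given for 1707 transcripts differed between the numbers. A difference between the cultures and a difference between the runs therefore cannot be told apart in any result below. Values are FPKM, which divide fragment counts by transcript length and by depth, summed over transcripts to 20140 genes, of which 12137 had 1 FPKM or more in 2 or more files and were tested. Every difference is replicate 2 minus replicate 1 on the log2(FPKM + 1) scale, averaged over the 2 genotypes, with n = 2 libraries on each side. Changes of low genes come out too small on this scale. Testing used limma with genotype as a second term and Benjamini-Hochberg adjustment over all 12137 genes, and a gene is said to pass at an adjusted p under 0.05.

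Summed FPKM ran from 718976 to 761641 per library, and between 11739 and 12177 genes reached 1 FPKM. The files hold no read totals, but low values step by whole reads, and from those steps control replicate 2 was 1.40 times as deep as control replicate 1 and knockdown replicate 2 was 1.30 times as deep as knockdown replicate 1. All 12 markers fixed for the MDA-MB-231 line were at 1 FPKM or more in at least 1 library, and their summed level was 4818 and 4967 FPKM in the replicate 1 libraries and 4382 and 4364 FPKM in those of replicate 2. The 14 luminal markers summed to between 675 and 729 FPKM per library, and 3 of them, CDH1, ESR1 and PGR, were under 1 FPKM in all 4 libraries. So were 9 of 10 leukocyte, 8 of 10 fibroblast and all 7 measured endothelial markers. AURKA checked the labels, with 124 and 22.3 FPKM in control and knockdown replicate 1 and 99.1 and 23.7 FPKM in control and knockdown replicate 2. Its replicate difference was -0.12 (standard error 0.11, adjusted p 0.471 in limma).

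Cultures of a line that carry the same label can differ in density, in time since the last change of medium and in the share of cells in each cycle phase. Each of these is known to move recognisable gene programs. NF-kappaB, a transcription factor held in the cytoplasm by IkappaB proteins, switches on cytokines and its own inhibitors when released. E2F factors switch on the genes that license and copy DNA as cells enter S phase, when replication-dependent histone genes are also transcribed.

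Replicate 2 differed from replicate 1 in 1701 of the 12137 tested genes (14.0%). Of these, 582 (4.80% of those tested) were higher and 1119 (9.22%) lower in replicate 2, and 116 of them differed 2-fold or more on this scale, 19 higher and 97 lower. Passing genes that were lower included 12 of 31 NF-kappaB targets, the stress-response gene TXNIP, 4 cystatins and 5 of 15 clock genes. Those that were higher included 14 of 36 genes of DNA replication, 13 of 27 of ribosome biogenesis, 11 of 21 heat shock chaperones and 8 of 23 splicing factors. With a constant prior variance these lists held 3, 1, 2 and 2 genes that passed higher. The NF-kappaB, cystatin and clock lists then held 4, 2 and 3 that passed lower. The split between higher and lower depends on the scaling between libraries: with median-of-ratios scaling 1259 were higher and 1101 lower. Without genotype as a term 0 genes passed in limma, and 2347 had an unadjusted p under 0.05.

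Over all tested genes, the difference had the same sign in control and in knockdown cells in 76.1%. The passing genes all had 1 sign, which the fit requires of them and which therefore shows nothing. Taken over genes (no independent replicates), the difference between the control libraries correlated with that between the knockdown libraries at r = 0.645 (Spearman 0.675). These are 2 separate pairs of libraries that share the run. The standard deviation of the difference over all genes was 0.416 between the controls and 0.307 between the knockdown libraries. Of the passing genes 74.5% differed more in the controls, against 63.9% of all tested genes. The replicate number took 53.8% of the summed squares of all genes, genotype 34.0% and the remainder 12.2%. The number took the largest part in 53.2% of genes, which are those whose replicate 1 and replicate 2 values do not overlap (20.5% higher and 32.7% lower in replicate 2).

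**Figure D1:**
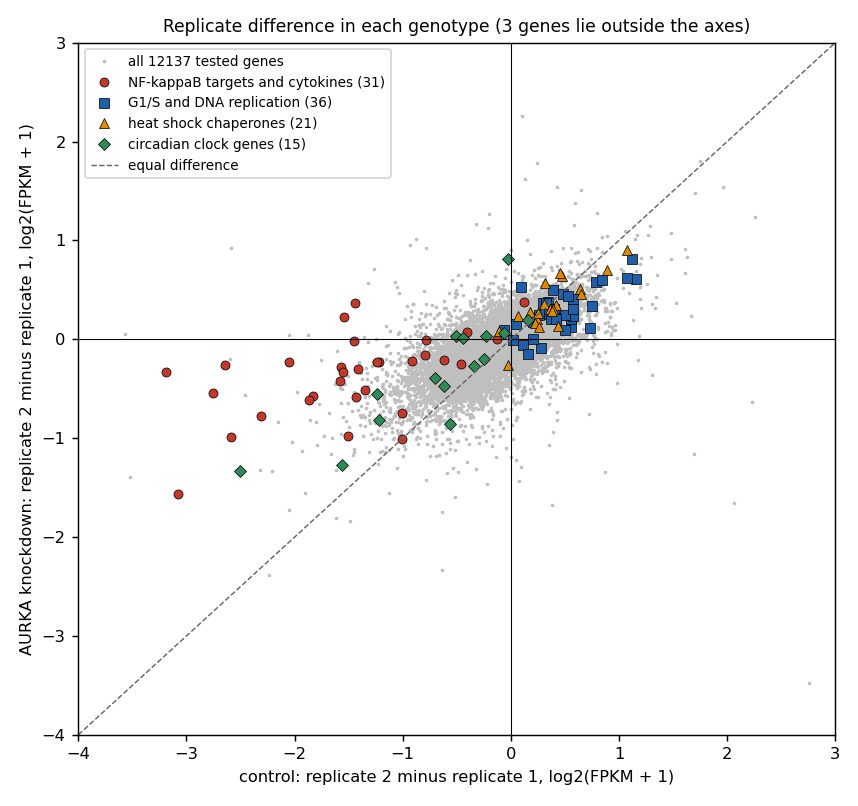
Each point is a gene, with the replicate difference between the 2 control libraries on the x axis and between the 2 knockdown libraries on the y axis, both as log2(FPKM + 1). NF-kappaB targets (red circles) stretch far to the left and less far down, while DNA replication genes (blue squares) and heat shock chaperones (orange triangles) lie mostly to the upper right; 3 genes lie outside the axes.

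Among passing genes of at least 5 FPKM on average that stand alone at their locus, the widest difference was that of TXNIP, an inhibitor of thioredoxin that also restrains glucose uptake. TXNIP stood at 289 FPKM in control replicate 1 and 34.3 FPKM in knockdown replicate 1, and at 24.4 and 12.4 FPKM in the same order in replicate 2 (chromosome 1, 145438468 to 145442635, GRCh37 as in the files). Both replicate 1 values lay above both replicate 2 values, with control replicate 1 far above the rest. The difference was -2.46 (standard error 0.41, adjusted p 0.0194), made of -3.52 in the controls and -1.40 in the knockdown cells. The call of TXNIP was lost with robust variance (adjusted p 0.343) and with a constant prior variance (0.0558). ARRDC4, ARRDC3 and MLXIP, which belong to the same glucose-sensing circuit and were looked up after TXNIP was seen, did not pass (-0.32, 0.10 and 0.02, adjusted p 0.462, 0.691 and 0.925). CST4 and CST1, secreted cystatins that inhibit cysteine proteases, differed to a like extent in both genotypes. CST4 (chromosome 20, 23666276 to 23669677) was at 34.3 and 33.4 FPKM in control and knockdown replicate 1 and at 10.5 and 8.80 FPKM in replicate 2, a difference of -1.72 (standard error 0.10, adjusted p 0.00432). CST1 was at 39.6 and 32.2 FPKM and then at 13.4 and 8.32 FPKM (-1.66, adjusted p 0.00759). These genes have close paralogs between which reads could be split. The related CST2 and CST3, looked up after CST1 and CST4 were seen, were lower as well, at -0.82 and -0.64, and both passed.

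Of 31 tested NF-kappaB targets and cytokines, 12 passed lower in replicate 2 (against 9.22% of all tested genes) and 0 higher, 30 lay below 0, and the median was -0.93 against -0.06 over all tested genes. Both replicate 2 values lay below both replicate 1 values in 23 members, against 32.7% of all tested genes. With robust variance 6 passed lower, and with a constant prior variance 4. The list median was -1.44 in the controls and -0.28 in the knockdown cells. Without control replicate 1 it was -0.45, in a fit without the genotype term, so that genotype is mixed into this value. No test of the difference between genotypes was possible, since it leaves no degree of freedom. That this library stands apart in these genes was known when the list was chosen, so the count is not independent evidence.

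Among the secreted factors, CSF2, the granulocyte-macrophage colony-stimulating factor, was at 29.8 and 10.8 FPKM in control and knockdown replicate 1 and at 2.64 and 2.98 FPKM in replicate 2, a difference of -2.32 (standard error 0.31, adjusted p 0.0144; chromosome 5, 131409482 to 131411859). CXCL1, a neutrophil chemokine, was at 24.6 and 6.65 FPKM and then at 3.27 and 2.85 FPKM (-1.79, adjusted p 0.0223). CSF1, the macrophage growth factor, was at 38.3 and 25.3 FPKM and then at 10.0 and 16.7 FPKM (-1.20, adjusted p 0.0300). In each of these genes control replicate 1 was the highest of the 4 libraries, and both replicate 2 values lay below both replicate 1 values. With robust variance none of the 3 passed (adjusted p 0.101 for CSF2, 0.153 for CXCL1 and 0.188 for CSF1). CXCL8, listed under its older symbol IL8, had 265 and 42.7 FPKM in replicate 1 and 28.2 and 33.9 FPKM in replicate 2, and did not pass (gene IL8, adjusted p 0.0739). IL11, which signals through gp130, was the 1 member above 0, at 75.5 and 26.2 FPKM against 81.9 and 34.3 FPKM (adjusted p 0.115).

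NFKBIA, the IkappaB protein that NF-kappaB itself induces, was at 158 and 65.7 FPKM in control and knockdown replicate 1 and at 42.6 FPKM in each of the replicate 2 libraries (-1.24, standard error 0.25, adjusted p 0.0272). NFKB2 and RELB, the pair of subunits of the non-canonical arm, differed by -0.93 and -1.01 (adjusted p 0.0244 and 0.0266; NFKB2 was at 0.0758 with robust variance), while NFKB1 stayed between 20.6 and 22.6 FPKM in the 4 libraries (adjusted p 0.663). TNFAIP3, a deubiquitinase that ends the signal, was at 23.5 and 7.48 FPKM and then at 2.62 and 4.82 FPKM and just missed the threshold (adjusted p 0.0501). ICAM1, an adhesion molecule, was at 25.6 and 6.45 FPKM against 4.38 and 3.37 FPKM (-1.54, adjusted p 0.0279). The calls of NFKBIA and ICAM1 were lost with robust variance (adjusted p 0.248 and 0.177). BCL3, a nuclear partner of the subunits that stands outside the list, was at 29.8 and 20 FPKM against 7.04 and 8.59 FPKM (-1.53, adjusted p 0.0144).

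The promoters of the passing members show where a kappaB motif lies. Among 24 tested members with a promoter in the RefSeq table (GRCh38.p14; 250 bases before to 50 after the start), 10 held the kappaB motif on either strand (41.7%), against 5.72% of 27305 promoters. Of the 8 matched members that passed, 3 held it, and these 3 stretches are shown with the motif in capitals, 5′ to 3′ on the strand of the gene.
CXCL1: ggaactccgGGAATTTCCCtggcccggg
NFKBIA: gactggcttGGAAATTCCCcgagcctga
BIRC3: attaccgctGGAGTTCCCCtaagtccta
They lie at chr4:73869306-73869333 on the plus strand, chr14:35404812-35404839 on the minus strand and chr11:102317340-102317367 on the plus strand, and the motif ends 69, 72 and 126 bases before the start. A match is a description of the letters and no evidence of binding. The members were listed for their known regulation or role, here and for the motifs below. The excess over all promoters therefore says nothing about the replicate difference. BIRC3, an inhibitor of apoptosis, was at 13.3 and 4.04 FPKM in control and knockdown replicate 1 and at 3.78 and 2.76 FPKM in replicate 2 (-1.001, adjusted p 0.0462, and 0.0747 with robust variance).

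Immediate early and growth factor genes went both ways. Of 22 tested immediate early genes, 8 passed lower and 3 higher, with a list median of -0.28. Among all tested genes 9.22% passed lower and 4.80% higher. JUNB, an AP-1 subunit, was at 99.8 and 38.2 FPKM in control and knockdown replicate 1 and at 21.6 and 21 FPKM in replicate 2 (-1.50, standard error 0.26, adjusted p 0.0214). DUSP5, a phosphatase that switches off nuclear ERK, was at 170 and 94.7 FPKM against 65.0 and 55.1 FPKM (-1.07, adjusted p 0.0144). EGR1 was at 36.4 and 21.5 FPKM against 19.6 and 11.1 FPKM (-0.88, adjusted p 0.0131). FOS, the partner of the JUN proteins, stood out in the other direction, at 5.23 and 1.97 FPKM against 9.79 and 6.21 FPKM (1.04, standard error 0.16, adjusted p 0.0169), and FOSB and JUN were higher too (0.61 and 0.37). The call of JUNB was lost with robust variance (adjusted p 0.205), under which 5 members passed lower and 3 higher.

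ERK feedback genes were lower, 6 of 16 tested and 0 higher (37.5% in either direction, against 14.0% of all tested genes), with a median of -0.34. They included AREG and EREG, ligands of the EGF receptor. AREG was at 40.2 and 12.1 FPKM in control and knockdown replicate 1 and at 9.12 and 5.40 FPKM in replicate 2 (-1.53, adjusted p 0.0144), and has a near-identical copy, AREGB, so its level is uncertain. EREG was at 126 and 83.8 FPKM against 49.0 and 55.5 FPKM (-0.97, adjusted p 0.0197). IER3, a stress-induced survival gene on both this list and the NF-kappaB list, was at 336 and 168 FPKM against 117 and 84.5 FPKM (-1.25, standard error 0.13, adjusted p 0.0131).

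**Figure D2:**
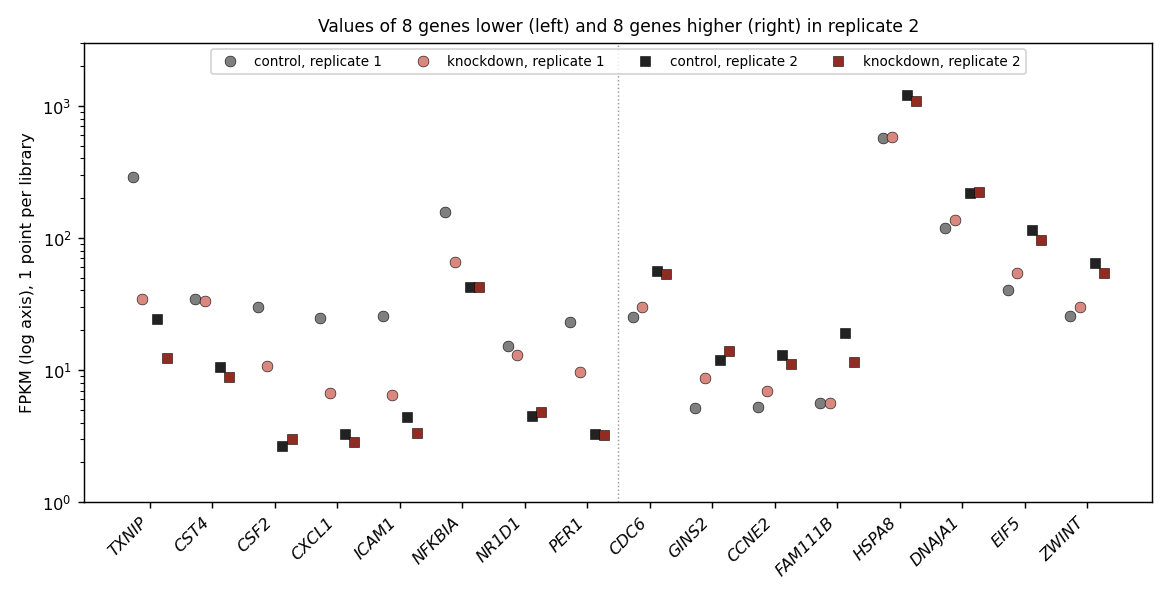
FPKM of 16 genes on a log axis, with 1 point per library: circles are replicate 1, squares replicate 2, grey to black control and pink to red knockdown. TXNIP, CST4, NF-kappaB targets and the clock genes NR1D1 and PER1 are lower in both squares than in both circles, and the 8 genes on the right are higher in both squares.

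Genes of the G1/S transition and DNA replication were higher in replicate 2. Of 36 tested members 14 passed higher (against 4.80% of all tested genes) and 0 lower, and 3 passed higher with a constant prior variance. All 36 had a difference above 0, and the median was 0.34, with 0.41 in the controls and 0.25 in the knockdown cells. CDC6, which loads the MCM helicase on origins, was at 25.2 and 30.1 FPKM in control and knockdown replicate 1 and at 55.8 and 53.4 FPKM in replicate 2 (0.96, standard error 0.10, adjusted p 0.0131; chromosome 17, 38443884 to 38459171). The helicase subunits MCM4 and MCM6 and the initiation factor MCM10 passed (0.68, 0.40 and 0.72). GINS2, part of the active helicase, was at 5.18 and 8.64 FPKM against 12 and 13.9 FPKM (0.85, adjusted p 0.0194). CCNE2, a cyclin of S phase entry, was at 5.28 and 6.96 FPKM against 13.0 and 11.1 FPKM (0.88, adjusted p 0.0214). In these genes both replicate 2 libraries were above both replicate 1 libraries, and the genotypes differed less than the numbers did.

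Members that did not pass included the catalytic subunits POLD1 (27.1 and 29.4 FPKM against 27.6 and 29.3 FPKM) and POLE, and E2F1, at 18.7 and 10.7 FPKM in control and knockdown replicate 1 and 21.7 and 10.7 FPKM in replicate 2 (adjusted p 0.517). FAM111B, a protease gene with a peak in S phase that was not on the list, had the largest rise among passing genes of at least 5 FPKM on average, from 5.60 and 5.68 FPKM to 19.2 and 11.5 FPKM (1.26, standard error 0.18, adjusted p 0.0144). The kinetochore genes ZWINT and SKA3 were higher by 1.07 and 0.92 (adjusted p 0.0144 and 0.0166). Genes of mitosis as a list were not: of 39 tested, CENPE passed higher, AURKB and CKS2 passed lower (7.69% in all, against 14.0% of all tested genes), and the median was 0.05. With median-of-ratios scaling neither lower call held (adjusted p 0.0804 for AURKB and 0.0943 for CKS2), and CKS2 was also lost with upper-quartile scaling (0.0611). AURKB was lost too with the GC trend removed (adjusted p 0.125 in limma).

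The E2F motifs TTTCCCGC and TTTGGCGC, searched on both strands, lay in 16 of 31 matched members (51.6%) against 2.31% of all promoters, and in 6 of the 11 matched members that passed. Stretches are shown for 4 of those 6, in each of which the motif ended upstream of the start. The position of the motif in the others is not given, so 4 is no count of upstream motifs. The motif is in capitals.
GINS2: tctcgccgtgGCGGGAAAacggcggccg
RFC3: tttggagctcGCGGGAAAacttgtctct
POLA1: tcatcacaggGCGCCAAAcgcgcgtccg
MCM6: attggtcaggTTTGGCGCgaaatctcca
The stretches lie at chr16:85688968-85688995 (minus strand), chr13:33818084-33818111 (plus), chrX:24693771-24693798 (plus) and chr2:135876516-135876543 (minus). RFC3, a clamp loader subunit, and POLA1, the catalytic subunit of the priming polymerase, differed by 0.44 each (adjusted p 0.0281 and 0.0412). Members were listed for their known role in replication, so the motif excess says nothing about the replicate difference. Whether passing members hold the motif more often than the others was not tested.

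Replication-dependent histone genes, whose mRNAs end in a stem-loop in place of a poly(A) tail, had a wider median difference between the controls than between the knockdown libraries. The median was 0.34, with 0.66 in the controls and 0.01 in the knockdown cells. Without control replicate 1 it was 0.10, in a fit without the genotype term, so that genotype is mixed into this value. HIST1H4C was at 531 and 819 FPKM in control and knockdown replicate 1 and at 1218 and 1183 FPKM in replicate 2 (0.86, standard error 0.16, adjusted p 0.0220). Another 6 of the 30 tested passed, all of them low. HIST1H1B, HIST1H1D, HIST1H2BG, HIST1H2BH and HIST1H3D were listed at 0 in both replicate 1 libraries and at 1.08 to 3.78 FPKM in replicate 2, and HIST1H2AE went from 0.56 and 0.15 FPKM to 4.27 and 3.02 FPKM. Each entered the test only through its replicate 2 values and so could only come out higher, so that the list's count shows no direction. All 6 tested genes listed at 0 in both replicate 1 libraries and at 1 FPKM or more in both of replicate 2 were histone genes, the sixth being HIST1H2BE. SLBP, whose protein binds the histone stem-loop, was at 42.1 and 40.4 FPKM against 61.1 and 55.2 FPKM (0.48, adjusted p 0.0197).

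Genes of ribosome biogenesis and MYC targets were higher. Of 27 tested, 13 passed higher (against 4.80% of all tested genes) and 0 lower, with a median of 0.33. Under a constant prior variance 1 passed higher. NCL, the nucleolar protein nucleolin, was at 448 and 524 FPKM in control and knockdown replicate 1 and at 813 and 746 FPKM in replicate 2 (0.68, adjusted p 0.0176). NOP58 and NOP56, core proteins of the box C/D particles that guide rRNA methylation, were higher by 0.56 and 0.57 (adjusted p 0.0144 and 0.0150). The E-box CACGTG, which MYC and other factors bind, was in 8 of 21 matched promoters of the list (38.1%) against 7.43% of all. ODC1, which makes the first polyamine, was at 56.7 and 91.8 FPKM in control replicates 1 and 2 and at 21 and 34.5 FPKM in the knockdown (0.69, standard error 0.08, adjusted p 0.0144), so the ratio was alike in both genotypes while the replicate groups overlap. Cytosolic ribosomal protein genes, by contrast, went both ways, with 3 of 79 passing higher and 3 lower (7.59%, below the background of 14.0%) and a median of 0.02.

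Heat shock chaperones were higher, 11 of 21 tested (against 4.80% of all tested genes) and 0 lower. The number passing higher was 2 with a constant prior variance. The list median was 0.33, with 0.36 in the controls and 0.31 in the knockdown cells. HSPA8, the constitutive HSP70, was at 568 and 575 FPKM in control and knockdown replicate 1 and at 1199 and 1080 FPKM in replicate 2 (0.99, standard error 0.10, adjusted p 0.0131; chromosome 11, 122928196 to 122933938). Its co-chaperone DNAJA1 was at 118 and 137 FPKM against 219 and 223 FPKM (0.80, adjusted p 0.0131). The exchange factor HSPH1 and the mitochondrial chaperonin HSPD1 with its lid HSPE1 also passed (0.57, 0.38 and 0.55). HSP90AA1 did not (1109 and 743 FPKM against 1368 and 954 FPKM, adjusted p 0.0602). A heat shock element, GAANNTTCNNGAA on either strand, was in 3 of 21 promoters against 0.487% of all. For HSPA8 it ended 43 bases before the start, at chr11:123062171-123062198 on the minus strand.
HSPA8: gggccccTTCTGGAAGGTTCtaagatag

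Splicing factors were higher, 8 of 23 tested (against 4.80% of all tested genes) and 0 lower, with a median of 0.22, and 2 passed higher with a constant prior variance. TRA2A and TRA2B, paired regulators of exon inclusion, were higher by 0.76 and 0.71 (adjusted p 0.0135 and 0.0144), TRA2A being at 29.6 and 39.1 FPKM in control and knockdown replicate 1 and at 51.5 and 65.9 FPKM in replicate 2. The SR proteins SRSF1, SRSF2, SRSF3, SRSF6 and SRSF7 passed as well, by 0.37 to 0.57. EIF5, which triggers start codon recognition, was at 40.4 and 54.6 FPKM against 115 and 96.5 FPKM (1.15, adjusted p 0.0144).

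Clock genes, a set looked up after PER1 and NR1D1 appeared among the lowest 12 and the lower genes, included 5 of 15 tested that passed lower and 0 higher. The share passing in either direction was 33.3%, against 14.0% of all tested genes. In the clock, CLOCK and ARNTL drive PER, CRY and NR1D1, which repress them in return. PER1 was at 23.3 and 9.63 FPKM in control and knockdown replicate 1 and at 3.28 and 3.23 FPKM in replicate 2 (-1.92, standard error 0.25, adjusted p 0.0144), and shares its locus in the files with 2 other genes. NR1D1, the repressor REV-ERB alpha, was at 15.2 and 13.1 FPKM against 4.50 and 4.85 FPKM (-1.41, adjusted p 0.0131). DBP, a transcription factor under direct clock control, was at 5.03 and 4.26 FPKM against 1.59 and 1.98 FPKM (-1.02, adjusted p 0.0181), and PER3 and BHLHE40 passed at -0.71 and -0.90. CLOCK and ARNTL were above 0 without passing (0.18 and 0.39, adjusted p 0.239 and 0.215).

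Among 27 TGF-beta targets and matrix genes 8 passed lower and 1 higher, with a median of -0.26. LOXL2, a collagen cross-linking enzyme, was at 66.5 and 74.6 FPKM in control and knockdown replicate 1 and at 42.4 and 46.1 FPKM in replicate 2 (-0.66, standard error 0.08, adjusted p 0.0144), and COL6A1, COL6A2 and TGFB1 differed by -0.62, -0.68 and -0.60. THBS1 was the 1 that passed higher. Of 33 lysosome and autophagy genes 9 passed lower and 0 higher (median -0.17), among them ULK1, the kinase that starts autophagy, at 13.0 and 14.2 FPKM against 4.61 and 7.94 FPKM (-1.04, adjusted p 0.0159). Of 14 matrix proteases and inhibitors 5 passed lower, such as MMP14 and PLAT, and TIMP3 passed higher. The shares of these lists that passed in either direction were 33.3%, 27.3% and 42.9% in the order given, against 14.0% of all tested genes.

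In the interferon list 4 members passed higher and 7 lower of 36 tested (30.6% in either direction, against 14.0% of all tested genes). IFIT2, an RNA-binding antiviral protein, was at 7.47 and 31.8 FPKM in control and knockdown replicate 1 and at 14.7 and 66.7 FPKM in replicate 2, so that the groups overlap across genotypes while replicate 2 is higher within each (0.97, standard error 0.10, adjusted p 0.0131). IFIT1 and IFIT3, listed at the same locus and so not independent of it, and IFIT5 at a locus of its own were higher too (0.38, 0.72 and 0.60), whereas IFITM1, IFITM2, IFITM3, IFI6, ISG15, IRF7 and IRF9 were lower (-0.35 to -1.09). The calls of IFITM3 and ISG15 were lost under median-of-ratios scaling (adjusted p 0.104 and 0.0579) and with the GC trend removed (0.147 and 0.359 in limma). Of 26 YAP and TAZ targets 4 passed lower and 2 higher (23.1% in either direction, against 14.0% of all tested genes), with a median of -0.11. CYR61 and CTGF, matricellular proteins, were lower by -0.70 and -0.54, and ANKRD1 was higher by 0.45. Among sterol genes, INSIG1, which holds back sterol synthesis, was lower (-0.75, adjusted p 0.0162) and CYP51A1, a demethylase of that synthesis, was higher (0.37, adjusted p 0.0300).

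**Figure D3:**
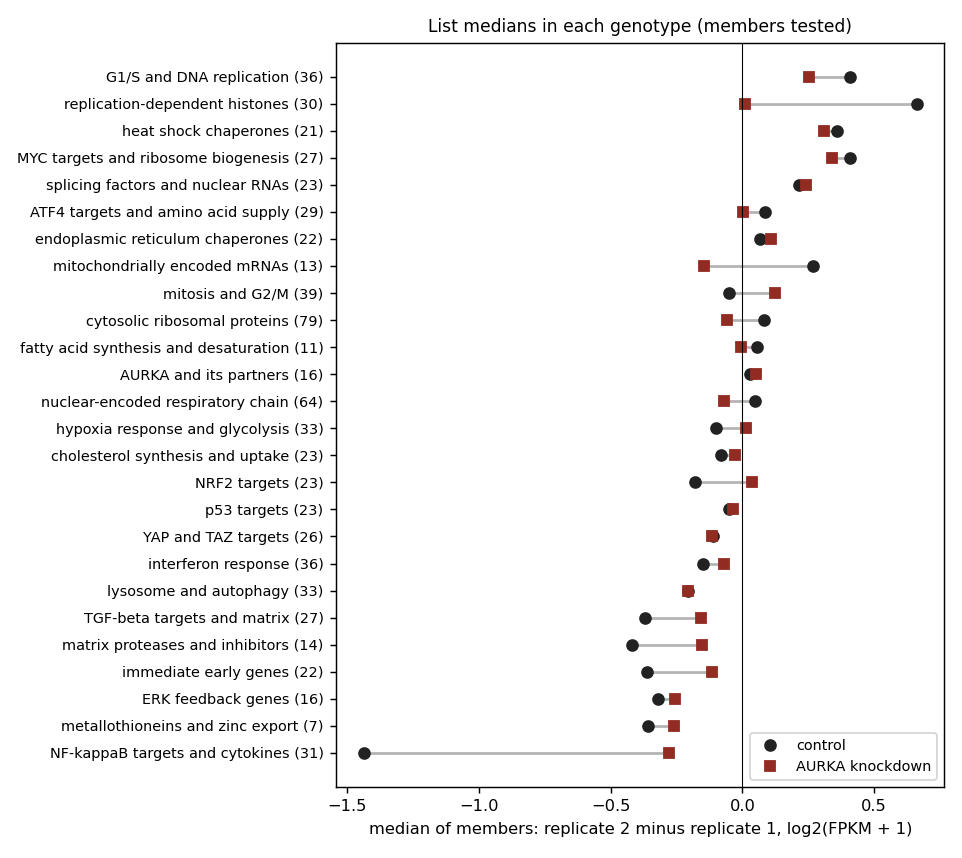
For each of 26 gene lists, the median replicate difference of its tested members (number in brackets) between the control libraries (black circles) and between the knockdown libraries (red squares), on the log2(FPKM + 1) scale. The NF-kappaB list lies lowest, at -1.44 and -0.28; DNA replication, heat shock and ribosome biogenesis lie at 0.25 to 0.41 in both genotypes, and the histone list at 0.66 and 0.01.

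In most other lists the share of passing members was below the background of 14.0%. Hypoxia and glycolysis genes had 1 of 33 passing, SLC2A3, a glucose transporter, with a difference of -0.87 (adjusted p 0.0331, and 0.0521 with robust variance). Nuclear-encoded respiratory chain genes had 3 of 64, fatty acid synthesis 1 of 11, AURKA partners 1 of 16, ATF4 targets 2 of 29, NRF2 targets 1 of 23 and p53 targets 3 of 23. Above the background, chaperones of the endoplasmic reticulum had 3 of 22 higher and 1 lower (18.2%), and metallothioneins 1 of 7 in each direction (28.6%). None of the 13 mitochondrially encoded mRNAs passed in limma (smallest adjusted p 0.0543, for MT-ND6), 2 had an unadjusted p under 0.05 (MT-ND5 and MT-ND6), and 1 passed higher with robust variance. Their median was 0.27 in the controls and -0.15 in the knockdown cells.

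GC content moved with the replicate difference. Across the 11874 tested genes with a GENCODE 29 transcript sequence, the difference correlated with the GC content of the transcripts at Spearman -0.33, with -0.265 in the controls and -0.361 in the knockdown cells. The median difference fell from 0.04 in the lowest of 10 bins by GC content (32.0 to 39.6%) to -0.28 in the highest (61.9 to 74.5%), where 313 of 1188 genes passed lower and 8 higher. Passing genes that were lower had a median GC content of 58.0% and those that were higher 44.8%, against 48.4% in the rest. Transcript length showed no such trend (Spearman -0.039, with -0.096 in the controls and 0.039 in the knockdown cells). Mean FPKM over the 4 libraries also moved with the difference, at Spearman 0.297 over all tested genes. Passing genes that were higher had a median level of 41.5 FPKM and those that were lower 12.6 FPKM, against 14.8 FPKM in the rest. The part of expression level in the results above was not tested. The part of GC content in the results above was not tested as a cause, but each list can be set beside its own value. With the GC trend removed from each library, 1032 genes passed higher and 998 lower. The list medians were then -0.80 for NF-kappaB targets, 0.40 for DNA replication, 0.34 for heat shock chaperones, 0.44 for ribosome biogenesis, 0.21 for splicing factors, -0.14 for lysosome genes and -0.10 for the TGF-beta and matrix list, against -0.26 before. For the histone list no such value is given, since only 19 of its 30 tested members have a GC content.

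**Figure D4:**
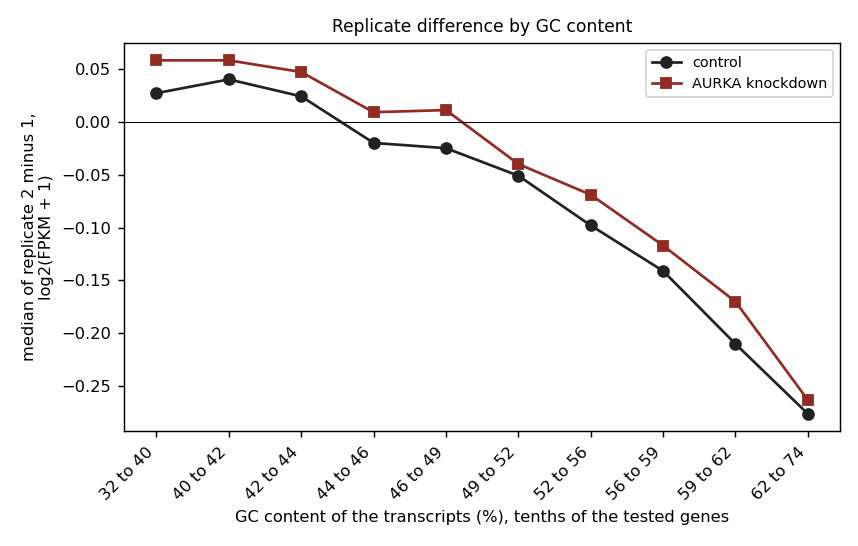
Median replicate difference, log2(FPKM + 1), in 10 bins of the tested genes ordered by the GC content of their transcripts (x axis, percent), for the control libraries (black circles) and the knockdown libraries (red squares). Both lines fall from just above 0 at low GC content to -0.28 and -0.26 in the highest bin.

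Some genes were listed at 0 in both libraries of 1 number. PIGY, an enzyme subunit of GPI anchor synthesis, was listed at 20.8 and 59.5 FPKM in control and knockdown replicate 1 and at 0 in both replicate 2 libraries, so that it entered the test only through replicate 1, while HERC3, at the same locus on chromosome 4, stayed between 10.7 and 14.5 FPKM. LUZP6 was at 137 and 10.6 FPKM in replicate 1 and at 0 in replicate 2, and has other transcripts or another locus in the 2 runs. In all, 6 tested genes were listed at 0 in both replicate 2 libraries and at 1 FPKM or more in both of replicate 1, and each of the 6 shares its locus with other genes. Of the 350 tested genes whose transcripts or locus differ between the runs, 1 of these 6 among them, 12% passed, against 14.1% of the others.

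The replicate difference also sets the spread against which the knockdown is judged. Without the replicate number as a term, 0 of 12137 genes passed between knockdown and control in limma (777 at an unadjusted p under 0.05), and with it 427 passed (3.52%). For 2 libraries against 2, an exact permutation test of a single gene cannot go below a p of 0.333, so all p-values above rest on the spread that limma pools across genes, with 1 residual degree of freedom.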

How the data were processed

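RNA-seq of 4 libraries was read from 1 deposited table per library. The authors deposited a value per transcript that is read here as FPKM, from the values, since the file headers name no unit. HTSeq 0.8.0, bcl2fastq 2.19 and hg38 stand in the submitters' processing notes, while a locus on chromosome 4 ends at 191013719, beyond that chromosome in hg38, so loci are given as GRCh37; no source used here names the program behind the FPKM values. Values were summed by gene ID, and 28 of 29 symbols that had turned into dates were named through the ID. Genes with 1 FPKM or more in 2 or more files were fitted with limma-trend (limma 3.58.1, R 4.3.3) on log2(FPKM + 1), two-sided, with replicate number and genotype as terms and Benjamini-Hochberg adjustment over 12137 genes. The fit was tested on simulated data made from these libraries. It recovered the differences put in with the right sign, but the share of false calls was on average above the nominal level and exceeded the limit first set for that test, which was then relaxed; counts of passing genes therefore hold more false calls than the threshold states.

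Depth ratios came from genes with 1 transcript and under 0.3 FPKM. There 31.0% of ratios between the controls and 27.8% between the knockdown libraries fell within 0.3% of whole-read ratios. Between the 2 libraries of 1 number the share was larger, 58.8% for replicate 1 and 50.7% for replicate 2. GC content is the value-weighted mean over GENCODE 29 transcripts. Nothing but the number says that samples of 1 number belong together, so p-values measure only the spread between these samples. Without strand information, reads of antisense or overlapping genes may be mixed.

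The comparison, lists and alternatives were chosen with earlier results of these data known. Named genes are the 12 highest and 12 lowest passing genes of at least 5 FPKM with 1 sign in both genotypes and 1 locus in both runs, the 3 members of each list with the smallest p, AURKA, and the 6 genes with the largest opposite differences. Further list members, the clock genes, cystatins, relatives of TXNIP and promoter motifs were chosen after values were seen. Alternatives covered scaling, pseudocount, filter, variance model, gene class, annotation, GC content and leaving out each library.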

Additional observations from a re-analysis of the deposited data

Results flagged for a closer look

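Flagged here are 1 gene list and 6 genes in which the replicate difference had opposite signs in the 2 genotypes. The 6 genes had the largest such differences among genes of at least 5 FPKM on average with 1 locus in both runs. Other lists and genes also had opposite signs. The NRF2 list had medians of -0.18 in the controls and 0.04 in the knockdown cells, and over all tested genes the sign was the same in 76.1%. Whether the genotypes differ was not tested, because 4 libraries leave no degree of freedom for it. Values are the control difference minus the knockdown difference, on the log2(FPKM + 1) scale. For mitochondrially encoded mRNAs it was 0.41 (0.27 in the controls and -0.15 in the knockdown cells). MT-ATP8, the most abundant of them, was at 45080 and 51980 FPKM in control replicates 1 and 2 and at 58890 and 46290 FPKM in the knockdown.

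In CCDC91, RREB1, MAP3K4 and DEPDC5 the pattern sat in 1 transcript. CCDC91 had a value of 6.23, and its transcript ENST00000543019 was listed at 0 in control replicate 1 and knockdown replicate 2, at 248.5 FPKM in control replicate 2 and at 288 FPKM in knockdown replicate 1, while the other transcripts summed to 28.1 to 40.5 FPKM. RREB1 had a value of -1.90, with 29.8, 9.74, 13.0 and 44.1 FPKM for 1 transcript in control replicates 1 and 2 and knockdown replicates 1 and 2, and 14.7 to 16.1 FPKM for the rest. MAP3K4 had a value of -1.71 and its other transcripts stayed at 12.9 to 14.6 FPKM. For DEPDC5 the value was 1.14, and for PMS1 it was -1.01, each with 1 transcript listed at 0 in at least 1 library. The other transcripts of DEPDC5 moved against the gene. From replicate 1 to 2 they went from 6.38 to 4.70 FPKM in the controls and from 4.74 to 6.31 FPKM in the knockdown. AKR1C1 stood at -1.30, and its other transcripts moved the same way as the gene. It has near-identical paralogs, so its level is uncertain.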

How the results depend on the processing

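Calls between the replicate numbers ranged from 1361 to 2360 genes under both scalings, without mitochondrial genes, with a pseudocount of 0.1, a filter at 5 FPKM, robust variance, genes of unchanged annotation, protein-coding genes, genes alone at their locus and removal of the GC trend. They came to 0 (0 higher, 0 lower) with no filter on low values and without the genotype term, and to 356 (64 higher, 292 lower) with a constant prior variance; the cause was not tested. Higher calls numbered 1259 under median-of-ratios and 934 under upper-quartile scaling, and 1032 with the GC trend removed, and 397 genes passed and differed 1.5-fold or more in both genotypes. Leaving out 1 library, which needs the genotype term dropped, gave 0 to 13 genes (0 higher and 0 to 13 lower). Of 176 passing genes that were named by the rule or stand on a list, 125 lost their call with a constant prior variance, 15 with robust variance, 23 with a pseudocount of 0.1, 9 under upper-quartile and 16 under median-of-ratios scaling. With the GC trend removed, 16 of the 171 that could be tested lost theirs. The alternatives on genes alone at their locus, GC content and 1.5-fold were chosen after seeing the data.

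For the knockdown, the replicate block raised the calls from 0 to 427, and leaving out 1 library gave 6 to 15. The check of pairing was the correlation of 0.645 between the control and knockdown differences, with 2 pairs a hint from the data and not the design.

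Signs turned for DEPDC5 with median-of-ratios and upper-quartile scaling (0.048 and 0.008) and for SREBF1 with the GC trend removed (0.12). With a library left out and no genotype term, signs turned for genes with a large genotype difference or opposite genotypes, namely, as ranges over the 4 fits, IFIT2 (-0.087 to 2.02), IFIT3 (-0.16 to 1.61), MT2A (-0.82 to 0.11), AURKA (-1.33 to 1.09), AKR1C1 (-0.73 to 0.42), SREBF1 (-0.47 to 0.16), ODC1 (-0.007 to 1.38), CCDC91 (-1.99 to 1.27), RREB1 (-0.56 to 0.70), MAP3K4 (-0.55 to 0.69), DEPDC5 (-0.32 to 0.26) and PMS1 (-0.38 to 0.47). Files give no read totals, so no limit of detection is stated.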
